A study of Mus musculus with 2 samples.

Results

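The data described here are the levels of 8 microRNA (miRNA) genes associated with blood vessels and connective tissue in the embryonic mouse midbrain. They are Mir126a, Mir143, Mir145a, Mir140, Mir214 and the mir-199 genes Mir199a-1, Mir199a-2 and Mir199b. They were chosen by name, and all 8 were among the 1973 miRNA genes in the deposited tables. The tissue was midbrain of B6NCrl mouse embryos at embryonic day 16.5, dissected from healthy embryos of mixed sex and pooled. There was 1 group with 2 libraries from separate pools, called replicates 1 and 2. The pool of replicate 2 held 37 embryos, and no number is stated for the other pool. No treatment, mutation or second stage was compared. Dissected midbrain mixes vessel wall, meninges, blood and neural cells. In such bulk samples fewer cells of a type and less RNA per cell cannot be told apart. The cell types named below come from textbook knowledge of these miRNAs, since no messenger RNA was measured.

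A miRNA gene is transcribed as part of a longer RNA that folds into a hairpin. The hairpin is cut to a short duplex, and an arm of it (5p or 3p) is loaded into Argonaute and pairs with target mRNAs mainly through its seed, bases 2 to 8 from the 5′ end. miR-126 is a miRNA of endothelial cells, where it sustains signalling by vascular endothelial growth factor by repressing Spred1. Its gene lies within Egfl7, a gene of endothelial cells. miR-143 and miR-145 mark the smooth muscle cells and pericytes of the vessel wall (mural cells) and promote their contractile state. The mir-199 genes and Mir214 are active in mesenchyme, the embryonic connective tissue, and in fibroblasts. miR-140 is known from cartilage, in whose cells its host gene Wwp2 is active.

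The mature sequences show how far these genes can be told apart by their reads. RefSeq sequences (GRCm38.p6, the mm10 assembly) were matched for 6 of the 8 members, and the arms listed there are printed 5′ to 3′ with the seed in capitals. miR-126a-3p, miR-214-5p, miR-214-3p and miR-140-3p each occurred in 0 other hairpins at other places among the 1005 hairpins of the table. By contrast, the 3p arm is letter for letter the same in all 3 mir-199 genes, and miR-199a-5p is the same in Mir199a-1 and Mir199a-2.
miR-126a-3p (chr2:26591402-26591423, plus strand): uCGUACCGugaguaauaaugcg
miR-214-3p (chr1:162223438-162223459, plus strand): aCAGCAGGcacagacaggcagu
miR-214-5p (chr1:162223397-162223418, plus strand): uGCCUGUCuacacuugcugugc
miR-140-3p (chr8:107551288-107551308, plus strand): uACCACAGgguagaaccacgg
miR-199a-3p and miR-199b-3p (chr1, chr2 and chr9): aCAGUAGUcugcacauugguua
miR-199a-5p (chr1 and chr9): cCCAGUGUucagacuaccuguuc

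The 6 distinct arms carried 6 different seeds. Few other genes shared one. The seed of miR-214-3p was also that of miR-761, whose gene Mir761 had 0 reads in both libraries. The seed of miR-140-3p was also that of miR-497b, whose gene Mir497b had 5 reads in replicate 1 and 2 in replicate 2. The seeds of miR-126a-3p and miR-214-5p were found in 0 other listed genes. For each member with a shared seed outside its own family, the member therefore held more counted reads than the gene it shared the seed with.

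The counted reads were those on the strand of the gene, 6151299 in replicate 1 and 5312642 in replicate 2, and levels are given in CPM, a gene's reads scaled to the same total in each library, so that 1 read was worth 0.163 CPM in replicate 1 and 0.188 CPM in replicate 2. Multimapping reads, listed apart from the genes, were 35.3% of the total in replicate 1 and 36.5% in replicate 2. Neuronal miRNA genes were present, led by Mir137 at 15108 ± 1072 CPM and Mir153 at 5868 ± 388 (mean ± SD, n = 2). The copies of Mir124a stood at 5.04 ± 0.47 (Mir124a-1), 3.86 ± 0.40 (Mir124a-2) and 0.54 ± 0.30 CPM (Mir124a-3). Multimapping reads are not listed by gene, so these counts do not show that miR-124 was scarce. Of the 7 listed neuronal genes 6 were detected, meaning 10 or more reads in both libraries. The list summed to 2.55% and 2.42% of counted reads.

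The 8 genes spanned 5 orders of magnitude in counted reads, from rank 10 of the 1973 miRNA genes down to 1 read in each library. Multimapping reads entered neither these ranks nor the shares below. The summed share of the 8 among counted miRNA reads was 3.40% in replicate 1 and 3.53% in replicate 2, a mean of 3.47% ± 0.091. The 95% Wilson bounds were 3.39 to 3.42 and 3.52 to 3.55. Mir126a alone supplied 67.8% and 70.3% of the reads of the 8. Of the 8, 7 were detected, while 20.8% of all 1973 genes were. The exception was Mir199a-1. Intervals here cover counting error only and not variation between pools. They treat each read as a separate molecule, which is not known for reads amplified by PCR.

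**Figure D1:**
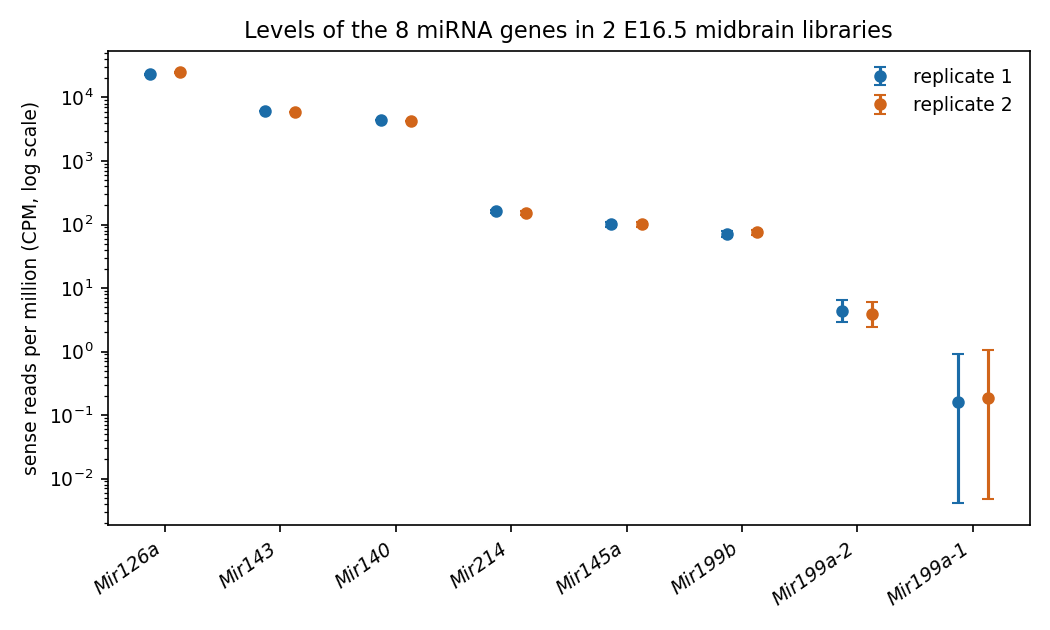
Level in CPM from sense reads (log scale) of each of the 8 genes in replicate 1 (blue) and replicate 2 (orange). Bars are exact Poisson 95% intervals of the count, which are smaller than the points for the most abundant genes and wide for Mir199a-1, with 1 read in each library.

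Mir126a (ENSMUSG00000065540.1, mm10 chromosome 2, 26591357 to 26591429, plus strand), the endothelial member, had 141891 reads in replicate 1 and 131808 in replicate 2. These were 23067 CPM (Poisson 95% interval 22947 to 23187) and 24810 CPM (24677 to 24945), with a mean of 23939 ± 1233. The levels lay close together, and the gene ranked 10 of 1973 by mean CPM. In GENCODE M21 it sits on the strand of Egfl7, inside an exon of transcripts annotated as retaining an intron, and in an intron of Gm20532. On the opposite strand, at 26591363 to 26591420, lies Mir126b, whose 58-base hairpin falls wholly within the 73 bases of Mir126a and which is not analysed here as a gene. The hairpin of Mir126a is shown with miR-126a-3p in capitals, since 19 of those 22 bases also lie, as their complement, under miR-126b-5p.
Mir126a hairpin: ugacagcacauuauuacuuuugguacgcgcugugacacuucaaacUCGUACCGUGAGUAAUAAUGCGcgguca

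The gene next above Mir126a was Mir99b at 24269 ± 678 CPM and next below was Mir30e at 22947 ± 872 CPM. Both lay within 1 SD of Mir126a, so these 3 levels were not separated beyond the spread of the libraries. Both neighbours were picked by their rank next to Mir126a, so their likeness to it in level was given by that choice.

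Mir140 (ENSMUSG00000065439.1, chromosome 8, 107551244 to 107551313, plus strand) had 27367 and 22690 reads, or 4449 CPM in replicate 1 and 4271 CPM in replicate 2. Its mean of 4360 ± 126 CPM ranked 43. It lies on the strand of Wwp2, inside an exon of a transcript annotated as retaining an intron. Its neighbours by level were Mir98 at 4525 ± 334 CPM and Mir361 at 4313 ± 162 CPM. Mir361 lay within 1 SD of Mir140. Mir98 lay 165 CPM above, which is more than the SD of Mir140 and less than that of Mir98.

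The mural pair was uneven. Mir143 (ENSMUSG00000065445.2, chromosome 18, 61649196 to 61649258, minus strand) had 37953 and 31329 reads. Its level was 6170 CPM in replicate 1 and 5897 CPM in replicate 2, a mean of 6033 ± 193 at rank 32. Mir145a (ENSMUSG00000065592.1, chromosome 18, 61647825 to 61647894, minus strand), which lies 1301 bases further along the same strand, had 616 and 534 reads. Its level was 100.1 CPM in replicate 1 and 100.5 CPM in replicate 2, a mean of 100.3 ± 0.26 at rank 210. GENCODE M21 places neither inside another gene.

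The pair is known to be made from a common precursor RNA. Mir143 had 61.6 times the reads of Mir145a in replicate 1 (95% Clopper-Pearson interval 56.9 to 66.8) and 58.7 times in replicate 2 (53.9 to 64.0), a mean ratio of 60.1 ± 2.08. The intervals of the libraries overlapped, so the imbalance did not differ between the pools beyond counting error. By level the neighbours of Mir143 were Mir20a at 6174 ± 1527 CPM and Mir153, a neuronal miRNA gene, at 5868 ± 388. Those of Mir145a were Mir483 at 100.9 ± 16.0 CPM and Mir31 at 98.8 ± 1.84. A further gene of the family, Mir145b, had 0 reads in both libraries.

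Of the mesenchymal genes, Mir214 (ENSMUSG00000065516.1, chromosome 1, 162223368 to 162223477, plus strand) had the most reads, 988 and 814. Its level was 160.6 CPM in replicate 1 and 153.2 CPM in replicate 2, a mean of 156.9 ± 5.23 at rank 194. Mir199b (ENSMUSG00000092807.1, chromosome 2, 32318460 to 32318569, plus strand) had 435 and 398 reads. These were 70.7 CPM and 74.9 CPM, a mean of 72.8 ± 2.97 at rank 228. In the ranking Mir214 stood between Mir668 at 157.5 ± 0.38 CPM and Mir301b at 154.1 ± 13.3 CPM, and Mir199b between Mir194-2 at 75.0 ± 4.68 CPM and Mir216b at 71.98 ± 6.49 CPM, and neither was separated from these neighbours by more than its own SD.

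The copies of mir-199a held almost no counted reads. Mir199a-2 (ENSMUSG00000070126.1, chromosome 1, 162217814 to 162217923, plus strand) had 27 reads in replicate 1 and 21 in replicate 2, or 4.39 CPM (2.89 to 6.39) and 3.95 CPM (2.45 to 6.04). Mir199a-1 (ENSMUSG00000065547.1, chromosome 9, 21496495 to 21496564, minus strand) had 1 read in each library. That is 0.163 CPM (0.00412 to 0.906) and 0.188 CPM (0.00477 to 1.05). The mean of Mir199a-2 was 4.17 ± 0.31 CPM at rank 353, between Mir6897 at 4.26 ± 2.03 and Mir1948 at 4.12 ± 0.30, and that of Mir199a-1 was 0.175 ± 0.018 CPM, a level shared by 15 genes with equal counts.

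All 4 genes lie opposite introns of dynamin genes, which encode membrane-scission GTPases. Mir199a-1 is opposite Dnm2, Mir199b is opposite Dnm1, and Mir199a-2 and Mir214 are opposite Dnm3. The latter pair also lies 5444 bases apart inside an exon of Dnm3os, an antisense RNA on their own strand. Mir214 had 36.6 times the counted reads of Mir199a-2 in replicate 1 (25 to 55.8) and 38.8 times in replicate 2 (25.2 to 63.0). The paralog Mir199b, on another chromosome, had 16.1 (10.9 to 24.7) and 19.0 times (12.2 to 31.0) the reads of Mir199a-2. In each of these ratios the libraries lay within each other's interval. Both listed arms of Mir199a-2 and the listed arm of Mir199b also occur in other hairpins, while those of Mir214 do not. Reads at several places are not listed by gene, so ratios over Mir199a-2 do not give the ratio of the mature miRNAs.

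**Figure D2:**
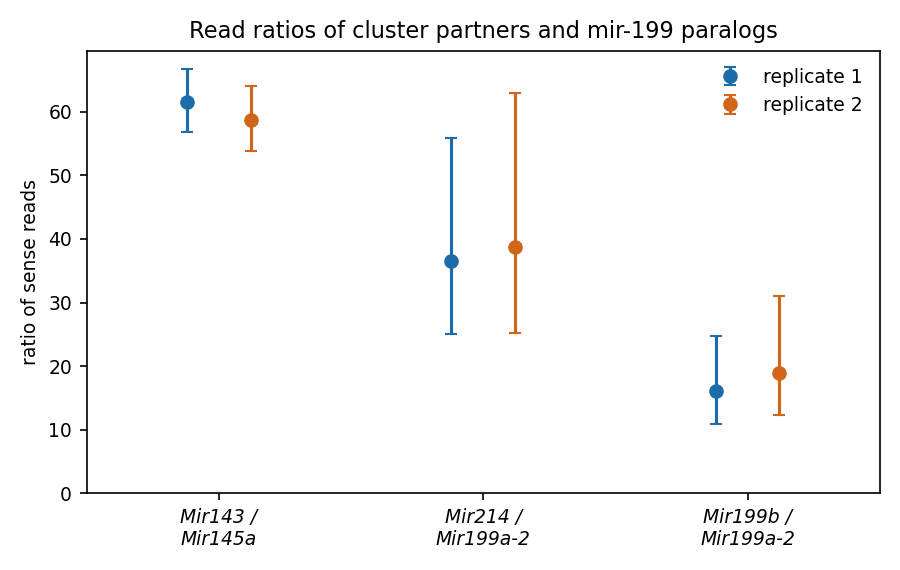
Ratio of sense reads between partners of a cluster (Mir143 over Mir145a, Mir214 over Mir199a-2) and between the paralogs Mir199b and Mir199a-2, in replicate 1 (blue) and replicate 2 (orange). Bars are 95% Clopper-Pearson intervals. The 2 libraries gave overlapping intervals for each of the 3 ratios. Both listed arms of Mir199a-2 and the listed arm of Mir199b also occur in other hairpins, so ratios with these genes hold for counted reads only.

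The mir-199 hairpins are printed whole, with capitals for every base that lies in a run of 20 or more bases found also in another of the 3, because reads inside such a run cannot be placed at 1 gene. Inserts were below 30 nt. The longest run shared by Mir199a-1 and Mir199a-2 was 27 bases, by Mir199a-1 and Mir199b 28 bases, and by Mir199a-2 and Mir199b 27 bases.
Mir199a-1 hairpin: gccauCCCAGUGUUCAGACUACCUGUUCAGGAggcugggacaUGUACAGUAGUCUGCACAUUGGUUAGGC
Mir199a-2 hairpin: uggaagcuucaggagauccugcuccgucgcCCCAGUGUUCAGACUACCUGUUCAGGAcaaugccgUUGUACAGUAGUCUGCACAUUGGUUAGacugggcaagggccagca
Mir199b hairpin: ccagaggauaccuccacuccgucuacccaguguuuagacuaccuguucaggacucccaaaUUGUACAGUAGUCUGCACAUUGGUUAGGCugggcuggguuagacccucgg
Mir214 hairpin, with its arms in capitals: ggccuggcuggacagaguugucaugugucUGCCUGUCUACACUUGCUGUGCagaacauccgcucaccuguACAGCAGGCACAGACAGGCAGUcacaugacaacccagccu

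In Mir199a-1 and Mir199a-2 the capitals cover both arms, 55 and 54 bases in all. In Mir199b they cover the 3p arm alone, 29 bases. The stretch of the Mir199b hairpin that matches miR-199a-5p, at hairpin positions 26 to 48, differs from it by C10U, counted from 1 at the 5′ end of miR-199a-5p. Of all windows of 22 bases, 13 of 49 in Mir199a-1, 12 of 89 in Mir199a-2 and 8 of 89 in Mir199b occurred in another hairpin, and 0 of 89 in Mir214, 0 of 49 in Mir140 and 0 of 52 in Mir126a did. The order of the counts within the mir-199 genes and Mir214 followed these shares, with Mir199a-1 lowest and Mir214 highest. The shares also depend on hairpin length, 70 bases for Mir199a-1 and 110 for Mir199a-2, whose numbers of shared windows were close. Reads at several places are not listed by gene, so the part of shared sequence in the low mir-199a counts was not tested, and these counts do not show that miR-199a was absent.

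Ranked by mean CPM, the order was Mir126a, Mir143, Mir140, Mir214, Mir145a, Mir199b, Mir199a-2 and Mir199a-1, and it was the same in each library. No neighbours in this order overlapped between the libraries. The smallest steps were from Mir145a to Mir199b (1.38-fold in mean CPM), from Mir143 to Mir140 (1.38-fold) and from Mir214 to Mir145a (1.56-fold), each larger than the SDs of both genes. The widest step among genes above 100 CPM was from Mir140 to Mir214, 27.8-fold. Small RNA reads span a whole mature miRNA, so CPM was not divided by length. Per kilobase of hairpin gene, Mir214 (1427 CPM per kb) and Mir145a (1433 CPM per kb) exchanged places and lay level. No test between genes was run, because 2 values on each side allow a two-sided exact permutation p of 0.33 at the least.

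**Figure D3:**
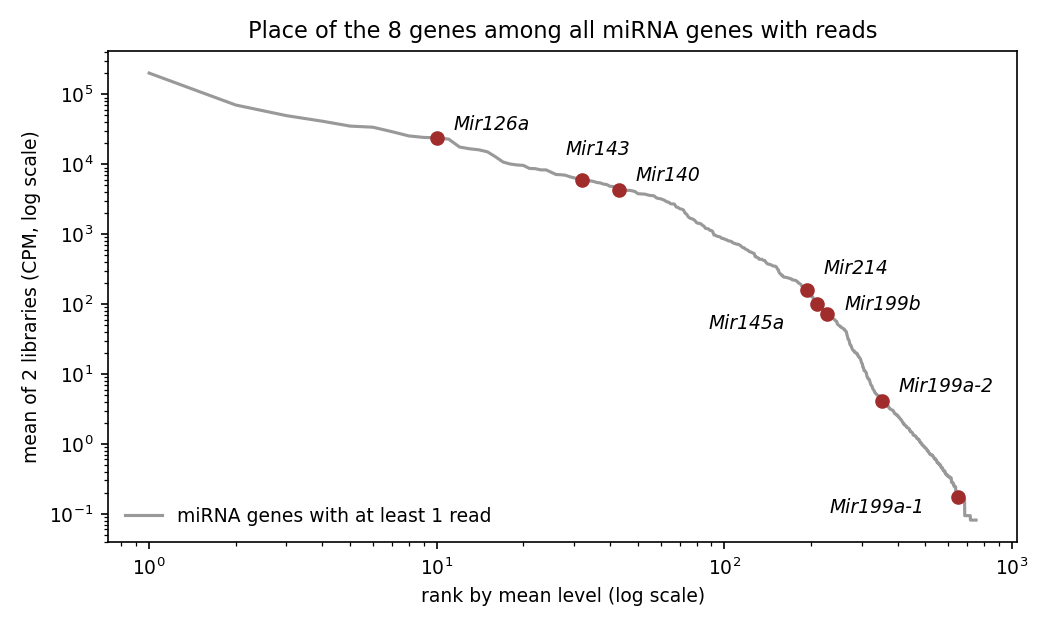
Mean CPM of the 2 libraries against rank for all miRNA genes with at least 1 read (grey line, both axes on a log scale), with the 8 members as red points. Mir126a, Mir143 and Mir140 lie at ranks 10, 32 and 43, and Mir214, Mir145a and Mir199b lie together at ranks 194, 210 and 228.

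The 7 detected members could be compared between the pools, and Mir199a-1 could not. The log2 ratio of replicate 2 over replicate 1 had a median size of 0.068 over the 7 detected members, beside 0.18 over all 411 detected genes. The size of the ratio also went with level, with a median of 0.12 over the 91 detected genes at 1000 CPM or more, where Mir126a, Mir143 and Mir140 lie, and 0.21 over the 320 below, where the other 4 lie. An exact binomial test of the reads, two-sided with Benjamini-Hochberg adjustment over the 411 genes, compares these libraries and not conditions. It called 3 of 7 members at an adjusted p of 0.05, while it called 47.4% of all genes tested. Mir126a was higher in replicate 2 by 7.56% (log2 ratio 0.11, counting interval 0.094 to 0.12, adjusted p = 1.5e-79). In the direction of replicate 1 lay Mir143 (log2 ratio -0.065, interval -0.087 to -0.044, adjusted p = 1.3e-08) and Mir140 (-0.059, -0.084 to -0.033, adjusted p = 1.8e-05).

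The test called higher levels in replicate 2 for 18.2% of genes and in replicate 1 for 29.2%. The 3 members called were those with the most reads. Among the 91 detected genes at 1000 CPM or more, 89.0% were called, and among the 320 others 35.6%. With TMM factors 185 genes were called, 95 higher in replicate 1 and 90 in replicate 2, and Mir143 (log2 ratio -0.017, adjusted p = 0.22) and Mir140 (-0.011, adjusted p = 0.59) no longer passed, and Mir126a did (0.15, adjusted p = 2.7e-168). When a biological coefficient of variation (BCV) of 0.2 was assumed in the exact test of edgeR, so that pools may vary, 0 of 7 members passed and 1.46% of all genes did. At an unadjusted p of 0.05 that test also gave 0, its smallest p being 0.798. The 7 members differed by at most 1.11-fold (Mir199a-2), which is small beside the assumed BCV, so the choice of BCV settled this outcome.

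The other members did not pass. Mir214 had a log2 ratio of -0.068 (counting interval -0.20 to 0.067, adjusted p = 0.47), Mir145a 0.0054 (-0.16 to 0.17, adjusted p = 0.99) and Mir199b 0.083 (-0.12 to 0.28, adjusted p = 0.59) by the exact binomial test. Mir199a-2 had -0.15 with the interval -1.05 to 0.73 (adjusted p = 0.86 by that test), so a 1.5-fold difference was not detectable there at this depth.

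**Figure D4:**
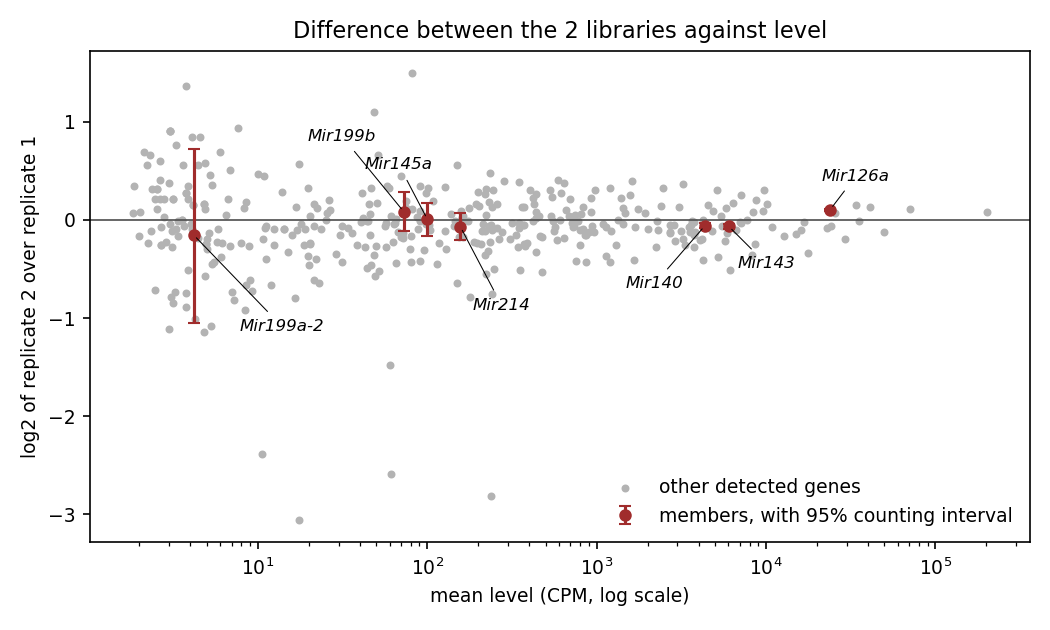
Log2 ratio of replicate 2 over replicate 1 against mean CPM (log scale) for the 411 detected genes, with the 7 detected members in red (95% Clopper-Pearson counting intervals) and the others in grey. The members with more than 1000 CPM lie between -0.065 and 0.11, near the zero line, and the interval of Mir199a-2 runs from -1.05 to 0.73.

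Ratios between members within a library need no scaling. Mir126a had 3.74 times the reads of Mir143 in replicate 1 (Clopper-Pearson interval 3.70 to 3.78) and 4.21 times in replicate 2 (4.16 to 4.26). Over Mir140 the ratios were 5.18 (5.12 to 5.25) and 5.81 (5.73 to 5.89). Neither pair of intervals overlapped, so the share of the endothelial gene relative to both others was higher in replicate 2 beyond counting error. Mir143 over Mir140 was 1.39 (1.37 to 1.41) and 1.38 (1.36 to 1.40), with overlapping intervals. With 2 pools, the spread of such ratios between pools is known only from this pair of values.

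Markers of other cells were compared between the pools by the same exact binomial test. It called 47.4% of all 411 genes tested and 89.0% of those at 1000 CPM or more. Of 5 blood cell genes listed 4 were in the tables, all detected, with Mir451a of red cells at 121.9 and 179.9 CPM and Mir223 of myeloid cells at 134.8 and 140.2 CPM. Their sum was 0.0410% of reads in replicate 1 and 0.0487% in replicate 2, and 2 of the 4 were called, both higher in replicate 2. All 7 epithelial genes were called higher in replicate 1, led by Mir203 (627.0 and 545.9 CPM) and Mir429 (419.4 and 59.5 CPM), with sums of 0.133% and 0.0689%. The 2 choroid plexus genes, Mir204 and Mir211, summed to 0.246% and 0.203%, with Mir204 called higher in replicate 1. Of the 7 muscle genes counted, 3 were detected and 0 called, and 3 were at 0 reads (Mir1a-1, Mir133a-1 and Mir133a-2). The counted reads of the 7 summed to 0.00398% and 0.00384%, led by Mir206 and Mir208b. Multimapping reads are not listed by gene, so these counts do not show that miR-1a or miR-133a was absent. The 3 oligodendrocyte genes, led by Mir219a-2 and Mir338, summed to 0.152% and 0.170%, and 2 were called higher in replicate 2 and 1 in replicate 1. Of the neuronal genes, Mir137 and Mir153 were called higher in replicate 1 and Mir128-1 and Mir128-2 higher in replicate 2. The part of these cell types in the ratios of Mir126a, Mir143 and Mir140 was not tested.

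A wider list of 16 miRNA genes known from vessels, smooth muscle or fibroblasts held 13 that were in the tables, of which 12 were detected. They summed to 2.22% ± 0.028 of miRNA reads, less than the 3.47% of the 8 genes above. Highest was Mir322 at 6652 ± 333 CPM, the mouse counterpart of human miR-424, then Mir22 at 5819 ± 355, Mir23a at 4854 ± 217 and Mir21a, known from fibroblasts and injury, at 3660 ± 16.9. Mir195a followed at 534.6 ± 10.04 CPM. The clustered genes Mir221 and Mir222, which restrain angiogenic signalling in endothelial cells, stood at 243.5 ± 36.8 and 127.1 ± 20.9 CPM. Mir503, Mir24-2, Mir27a, Mir490 and Mir152 lay between 80.3 and 31.4 CPM.

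By the exact binomial test 4 of the 12 were higher in replicate 2, namely Mir22, Mir23a, Mir221 and Mir222, and 2 were higher in replicate 1, namely Mir322 and Mir503. The other 6 did not pass. Over all 411 genes tested 47.4% were called, 18.2% higher in replicate 2 and 29.2% higher in replicate 1. With TMM factors 7 were higher in replicate 2, Mir195a, Mir21a and Mir24-2 being added, and the same 2 in replicate 1. The median log2 ratio was 0.015 over the 12, beside -0.056 over all detected genes. Mir221 had 217.5 CPM in replicate 1 and 269.5 CPM in replicate 2, a log2 ratio of 0.31 (adjusted p = 7.5e-08), and its partner Mir222 had 112.3 and 141.9 CPM, a log2 ratio of 0.34 (adjusted p = 3.0e-05). Mir503 had 92.2 and 68.3 CPM, a log2 ratio of -0.43 (adjusted p = 2.5e-05), and Mir322 of the same cluster had a log2 ratio of -0.10 (adjusted p = 1.5e-21). The ratio of Mir126a had the sign of those of Mir221 and Mir222 and was smaller, and the difference between those ratios was not tested. Mir126b, Mir497a and Mir3120 of the list are not analysed here.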

How the data were processed

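MicroRNA-seq libraries of 2 pools of embryonic midbrain were analysed. Per the file headers and description files, the authors deposited raw counts of reads per miRNA gene on mm10 with GENCODE M4. No label names the aligner, the counter or the trimming. Rows that name no gene held 54.9% and 55.8% of all reads and stayed out of library sizes and tests. The layout is that of a counter that keeps only reads placed at 1 locus, which is read from the values. Gene symbols and places came from GENCODE M21 on the same assembly, by identifier without version, and matched 1894 of 1973 genes. CPM was computed from sense counts over their sum. Detection meant 10 or more reads in both libraries. Mature and hairpin sequences came from RefSeq (GRCm38.p6). Named genes were the 8 members, the genes ranked next to each, the wider vessel and mesenchyme list and the 2 highest genes of each marker list; any further gene, such as those with a count of 0, was picked with its values in view. The members and lists were chosen with earlier results of these data known. The binomial test was tested on simulated data drawn with counting error only, which hold no variation between pools. p-values and intervals cover counting error between these libraries only. Alternatives used TMM factors and an exact test (edgeR 4.0.16), DESeq2 1.42.0 size factors, other count minimums, strands and totals, and each library alone. Tools were R 4.3.3, Python 3.11.15, numpy 2.4.6, scipy 1.17.1, pandas 2.3.3 and matplotlib 3.10.9.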

Additional observations from a re-analysis of the deposited data

Results flagged for a closer look

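Reads on the strand opposite a member were used in no comparison. Opposite Mir126a there were 8 reads in replicate 2, more than the 3 reads that a count of 0 allows, and 3 in replicate 1, where Mir126b is annotated. They came to 0.00607% and 0.00211% of the reads at that place. Opposite Mir214 there were 4 reads in replicate 1 and 0 in replicate 2. The other 6 members had at most 1 opposite-strand read in a library.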

How the results depend on the processing

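The members' summed share moved with the total it was taken from, from 3.47% to 1.55% of all reads of the tables, 3.18% of reads mapped to 1 place and 4.34% with the most abundant gene left out of the total. It ran from 3.40% to 3.53% when a library was left out. The count of members differing between the libraries was 3, and 1 with TMM factors and 1 with DESeq2 size factors. It was 0 at a fixed BCV of 0.2, where the BCV assumed settled the outcome. It was 3 without a filter, with a minimum of 50 reads, with reads on either strand and, chosen after seeing the data, without the most abundant gene in the total. That test could not be run with a library left out. TMM factors moved the split of all calls from 120 higher in replicate 1 and 75 in replicate 2 to 95 and 90, and the median log2 ratio by 0.048. Members detected numbered 6 with a minimum of 50 reads and 8 with a minimum of 1. No tested member's ratio changed sign under the alternatives run. TMM and DESeq2 factors were scaled to keep the average library size, so a member's mean level could hardly move. It moved by at most 0.14%. The SD over the libraries did change with TMM factors. For Mir143 it fell from 193 to 50.1 CPM and for Mir140 from 126 to 22.6 CPM, and for Mir126a it rose from 1233 to 1800 CPM. No paired analysis was possible because there was 1 group. For Mir199a-1 and Mir199a-2, depth limits any statement on a difference between the pools.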

Other observations

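Across 849 Mir genes with an arm in the RefSeq table, those whose listed arms all occur in another hairpin were detected in 8 of 29 cases (27.6%). Those with no such arm were detected in 304 of 771 (39.4%), and those with some such arms in 38 of 49 (77.6%). The median level of the detected genes was 223 CPM in the first of these classes, 127 CPM in the second and 75.0 CPM in the third. The classes use the arms the table lists, which for Mir199b, Mir126a and Mir140 is 1 arm each, the 3p arm. On that basis all 3 mir-199 genes are in the first class, and Mir126a, Mir140 and Mir214 in the second. The 5p stretch of Mir199b, which differs from miR-199a-5p by C10U, did not enter. The classes were formed after the mir-199 counts were seen, and no test was run.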
